A study of Mus musculus with 4 samples.

Results

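The genes described here are 10 immediate early genes of the AP-1, EGR and IER groups: Jun, Junb, Jund, Fos, Fosb, Fosl1, Egr1, Atf3, Ier2 and Ier3. They were chosen by name, with earlier results of these data known, and all 10 were found among the 17710 features that carried a gene symbol, of 19645 features in all. RNA sequencing was performed on mouse embryonic stem cells (ESCs), the pluripotent cells of the early embryo, that were wild type (WT) or knockout (KO) for Bmal1, with 2 libraries per genotype. Bmal1 (Arntl) encodes the transcription factor that pairs with CLOCK at the core of the circadian clock. The KO cells were 1 line derived with CRISPR-Cas9 by a small frameshifting deletion in an exon of the gene, and both lines were grown on gelatin in serum with LIF, with no other treatment. Total RNA was depleted of ribosomal RNA, and each gene's level was given as FPKM, fragments scaled by transcript length and by the mapped fragments of the library, from which the depth of a library is unknown. The study describes the libraries of a genotype as biological replicates, whereas the labels name no separate cultures or clones. The p-values below measure only the spread between these libraries, part of which may be technical, and the effect of genotype cannot be told apart from that of the clone.

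Immediate early genes are transcribed within minutes of a growth factor, serum or stress signal, before any new protein is made, mostly through the ERK and p38 kinase cascades acting on promoter-bound SRF, ternary complex factors and CREB. JUN proteins dimerise with each other or with FOS proteins to form AP-1, which binds the sequence TGACTCA, while EGR1 is a zinc finger protein that binds GC-rich sites. The RNAs are short-lived and are turned off again by feedback loops such as the ERK phosphatases of the DUSP family. No stimulus was applied here, so the values are levels in growing ESCs.

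The 10 genes differed widely in level. By mean FPKM over the 4 libraries the order was Ier2 (169), Jund (67.8), Junb (33.6), Egr1 (10.1), Ier3 (3.43), Jun (2.14), Atf3 (2.01), Fos (0.547), Fosl1 (0.134) and Fosb (0.0929). Ier2 lay above 96.7% of the features with a symbol and Jund above 92.1%, whereas Fos lay above 33.2% and Fosb above 21.1%. The ranges over the 4 libraries overlapped between 3 pairs of neighbours in this order, namely Ier3 and Jun, Jun and Atf3, and Fosl1 and Fosb, and were separate between all others. Among the AP-1 genes, Jund and Junb were the abundant RNAs, and the 3 FOS genes were the lowest of the 10.

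**Figure D1:**
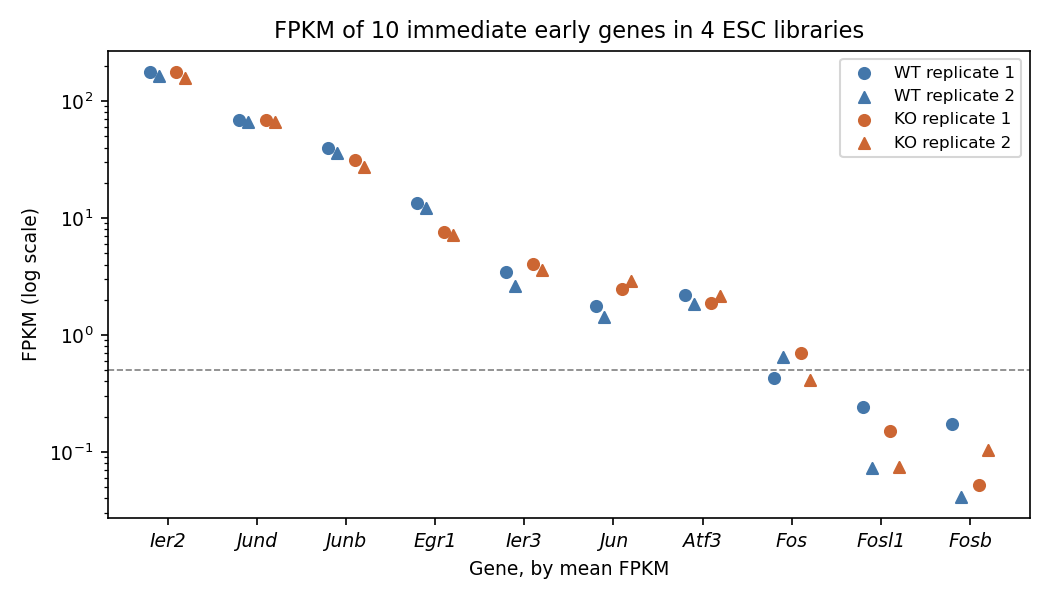
FPKM on a log axis of the 10 genes in each library (blue, WT; orange, KO; circles, replicate 1; triangles, replicate 2), ordered by mean, with the dashed line at 0.5 FPKM, the mean below which a feature was not tested. Ier2 stands highest at a mean of 169 FPKM, the KO points of Egr1 and Junb lie below the WT points, those of Jun and Ier3 lie above, and Fosl1 and Fosb lie under the line.

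In the comparison of KO with WT, which asked whether loss of BMAL1 was accompanied by a change of these genes, Egr1 was lower in the KO, and the other 7 tested genes did not pass the test. Of the 10 genes, 8 had the mean of at least 0.5 FPKM required for testing, and Fosl1 and Fosb did not. By limma on log2(FPKM + 0.1), with Benjamini-Hochberg adjustment over the 12990 features tested, 1 of the 8 genes had an adjusted p under 0.05, against 12.5% of all tested features (5.6% lower and 6.85% higher in the KO). None changed by over 2-fold at that threshold, against 4.14% of all tested features. An unadjusted p under 0.05 was found for 3 genes (Egr1, Jun and Junb). The share of all tested features with such a p was not computed, so this count is a description only. The WT and KO values did not overlap for 4 of the 8 genes, of which Jun and Ier3 were higher and Junb and Egr1 lower in the KO, a share close to the 58.8% of all tested features with separate groups. The median log2 fold change of the 8 genes was 4.48e-05, and that of all tested features was -0.02. In bulk RNA such as this, fewer cells that express a gene and less RNA per cell cannot be told apart.

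**Figure D2:**
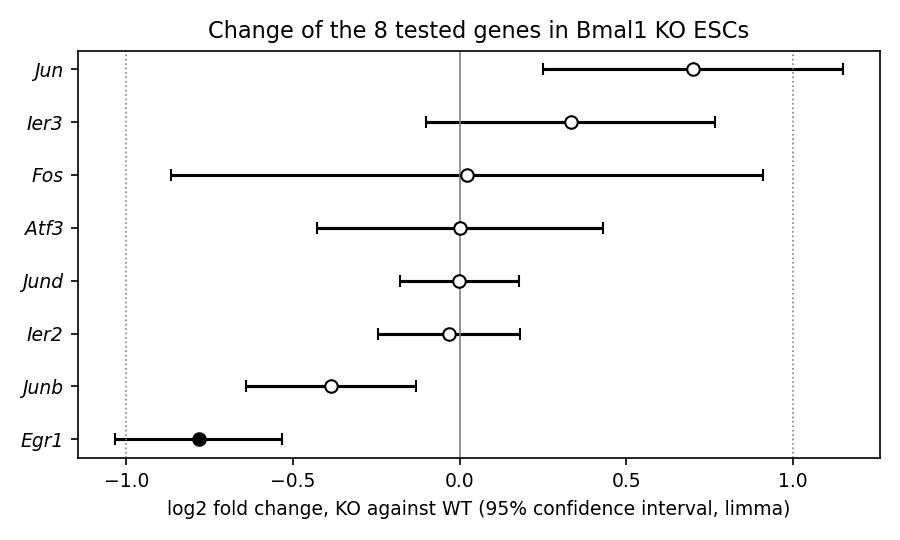
Log2 fold change (KO against WT) of the 8 tested genes with its 95% confidence interval from limma, with a filled point for an adjusted p under 0.05 and dotted lines at a change of 2-fold. Egr1 at -0.78 is the only filled point, the intervals of Jun (0.25 to 1.15) and Junb (-0.64 to -0.13) leave out 0, and those of the other 5 genes include it.

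Among the JUN genes, Jund overlapped between genotypes, and Jun and Junb differed in opposite directions without passing the adjusted threshold. Jund (ENSMUSG00000071076.6, GRCm38 chr8:70697739-70700616, plus strand) encodes the JUN protein usually found in unstimulated cells. It measured 69.5 and 66.2 FPKM in WT and 68.7 and 66.9 FPKM in KO. The KO values lay inside the WT range, with a 95% interval of the log2 difference from -0.18 to 0.18. The annotation places an antisense transcript, Gm11175, over Jund, and no source used here stated whether the counting used strand.

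Junb (ENSMUSG00000052837.6, annotated at chr8:84974484-84978718, minus strand) encodes a JUN protein that is a weaker activator than JUN and can restrain it. Its level was 40.1 and 36.1 FPKM in WT and 31.2 and 27.1 FPKM in KO. Both KO libraries were below both WT libraries, and the log2 fold change was -0.39 (SE 0.10, n = 2 libraries per group, unadjusted p = 0.0101 and adjusted p = 0.0671 by limma). Left out singly, WT replicate 2 and KO replicate 1 gave adjusted p values of 0.0204 and 0.0377, and the other 2 libraries gave 0.158 and 0.202. The file listed Junb with a longer region, chr8:84976355-84987955, and a feature without a symbol had the same region, with 1.33 and 1.27 FPKM in WT and 0.782 and 0.519 FPKM in KO (log2 fold change -0.92, SE 0.26, adjusted p = 0.0777).

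Jun (ENSMUSG00000052684.4, chr4:95049036-95052222, minus strand) encodes the founding member of AP-1 and a target of the JNK kinases. Its level was 1.78 and 1.43 FPKM in WT and 2.45 and 2.88 FPKM in KO. Both KO libraries were above both WT libraries. The log2 fold change was 0.70 (SE 0.18, n = 2, unadjusted p = 0.00905 and adjusted p = 0.0624 by limma), with an interval from 0.25 to 1.15. Over the 14 alternative settings the adjusted p ran from 0.0167, without WT replicate 1, to 0.186, without KO replicate 2, and it was under 0.05 in 3 of them. The annotated antisense transcript Junos overlaps Jun and was not a feature of the table.

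Summed over the 3 JUN genes, the level was 111 and 104 FPKM in WT and 102 and 96.9 FPKM in KO. Jund made up 62.4% and 63.8% of that sum in WT and 67.2% and 69.1% in KO. The Junb share was 36.0% and 34.8% in WT and 30.5% and 27.97% in KO. Jun itself was a small part, 1.59% and 1.38% in WT and 2.39% and 2.98% in KO. The ratio of Jun to Junb was 0.0443 and 0.0398 in WT and 0.0786 and 0.106 in KO, so that both KO ratios were above both WT ratios, while Junb remained the more abundant RNA in every library. With 2 libraries against 2, an exact two-sided permutation test of such a ratio cannot give a p below 0.333, and none was run.

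The FOS genes, whose proteins need a JUN partner to bind DNA, were low, under 1 FPKM in every library. Fos (ENSMUSG00000021250.13, chr12:85473901-85477270, plus strand) was at 0.431 and 0.646 FPKM in WT and 0.696 and 0.413 FPKM in KO. The highest and the lowest value were both KO libraries. The 95% interval of the log2 difference ran from -0.87 to 0.91, so neither a fall nor a rise within it could be excluded. The replicate libraries differed by -0.49 in WT and 0.63 in KO on the log2(FPKM + 0.1) scale (replicate 1 against replicate 2). Those differences were wider than the median absolute differences of 0.306 and 0.277 over the 1565 tested features within 2-fold of the level of Fos.

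Fosl1 (FRA-1; ENSMUSG00000024912.6, chr19:5447698-5457575, plus strand) was at 0.240 and 0.0728 FPKM in WT and 0.149 and 0.0739 FPKM in KO, and the groups overlapped. Tested without a filter on low values, its log2 fold change was -0.22 with an interval from -1.29 to 0.85 (adjusted p = 0.778, limma). It was listed with the same region as Ccdc85b, a gene at 4.76 to 6.39 FPKM, and how reads between them were divided is not given in the sources used here. Fosb (ENSMUSG00000003545.3, chr7:19302696-19310045, minus strand) was at 0.174 and 0.0413 FPKM in WT and 0.0523 and 0.104 FPKM in KO. Its groups overlapped too, and without the filter its log2 fold change was -0.16 with an interval from -1.18 to 0.85 (adjusted p = 0.829, limma). Fosl2 (FRA-2), which was not among the 10 genes, was the FOS gene with the most separate groups, at 0.583 and 0.552 FPKM in WT and 0.256 and 0.255 FPKM in KO, and it too was below the filter (log2 fold change -0.91 and adjusted p = 0.103 without it).

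With Fosl2 included, the FOS genes summed to 1.43 and 1.31 FPKM in WT and 1.15 and 0.846 FPKM in KO. JUN RNA exceeded FOS RNA 78.0-fold and 79.1-fold in WT and 88.7-fold and 115-fold in KO. Both KO ratios were above both WT ratios, but this separation depended on Fosl2, which lay below the filter and was named after its values were seen. Without Fosl2 the ratios of WT and KO overlapped.

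Promoter sequences from RefSeq (GRCm38.p6) are shown for the 3 genes whose window held 1 of the 7 motifs searched. The table matched 7 of the 10 genes by symbol: Jun, Junb, Jund, Fos, Fosb, Atf3 and Ier3. Each window ran from 250 bases before to 50 bases after the annotated start. The 80 bases that end just before the start are given 5′ to 3′ on the gene's own strand, with the motif in capitals. For Jun (chr4:95052223-95052302, minus strand) the capitals mark TGACATCA, a variant AP-1 and CRE sequence whose first base is at position -45, where -1 is the last base before the start. For Fos (chr12:85473810-85473889, plus strand) they mark TGACGT, the CRE core, from position -66. For Atf3 (chr1:191183334-191183413, minus strand) they mark ACGTCA, which is TGACGT on the opposite strand, from position -8. The annotated Atf3 gene starts further upstream, at 191218039, so the stretch shown is not that of its outermost start.
Jun: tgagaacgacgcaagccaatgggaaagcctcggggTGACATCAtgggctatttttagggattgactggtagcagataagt
Fos: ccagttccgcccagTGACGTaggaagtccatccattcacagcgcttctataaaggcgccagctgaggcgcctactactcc
Atf3: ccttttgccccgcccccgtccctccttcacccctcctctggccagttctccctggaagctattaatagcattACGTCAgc

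The motifs were counted on both strands in all 32851 promoter windows of 300 bases. TGACATCA was in 3.62% of them, TGACGT in 7.51%, TGACTCA in 5.20%, and TGACGTCA, which contains TGACGT, in 1.79%. The E-box CACGTG, the sequence bound by CLOCK and BMAL1, was in 7.15%, the EGR1 motif GCGTGGGCG in 0.612% and the CArG box, bound by SRF, in 1.63%. None of the last 5 of these 7 motifs was found in the 7 windows, which says only that these letters were not in these stretches. None of the 3 genes with a motif shown passed the test between the genotypes (limma, adjusted p = 0.0624 for Jun, 0.975 for Fos and 0.998 for Atf3; unadjusted p under 0.05 for Jun alone).

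Egr1, which encodes a zinc finger activator induced by ERK through SRF, was the gene that fell. Egr1 (ENSMUSG00000038418.7, listed at chr18:34861207-34864956, plus strand, within an annotated gene that starts at 34859823) was at 13.4 and 12.1 FPKM in WT and 7.60 and 7.14 FPKM in KO. Both KO libraries were well below both WT libraries, and the means were 12.8 ± 0.934 FPKM in WT and 7.37 ± 0.323 FPKM in KO (SD, n = 2). The KO mean was 0.577 of the WT mean. On the log2(FPKM + 0.1) scale Egr1 fell by 0.78 (SE 0.10, 95% interval -1.04 to -0.53, adjusted p = 0.00994 by limma), and 4.21% of the tested features had a lower log2 fold change. The replicate libraries differed by 0.148 in WT and 0.0882 in KO on that scale, close to the medians of 0.132 and 0.133 over the 4027 tested features within 2-fold of its level.

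The fall of Egr1 was past the threshold under all 14 alternative settings, with log2 fold changes from -0.86 to -0.71 and adjusted p values from 9.16e-05 to 0.0281. Leaving out 1 library at a time was among those settings. The 5 tested features on each side of Egr1 on the chromosome ranged from -0.19 to 0.18 in log2 fold change, with a median of -0.07, and 0 of these 10 passed by limma. Relative to Ier2, the most abundant of the 10 genes, the Egr1 level was 0.0756 and 0.0734 in WT and 0.0431 and 0.0450 in KO.

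**Figure D3:**
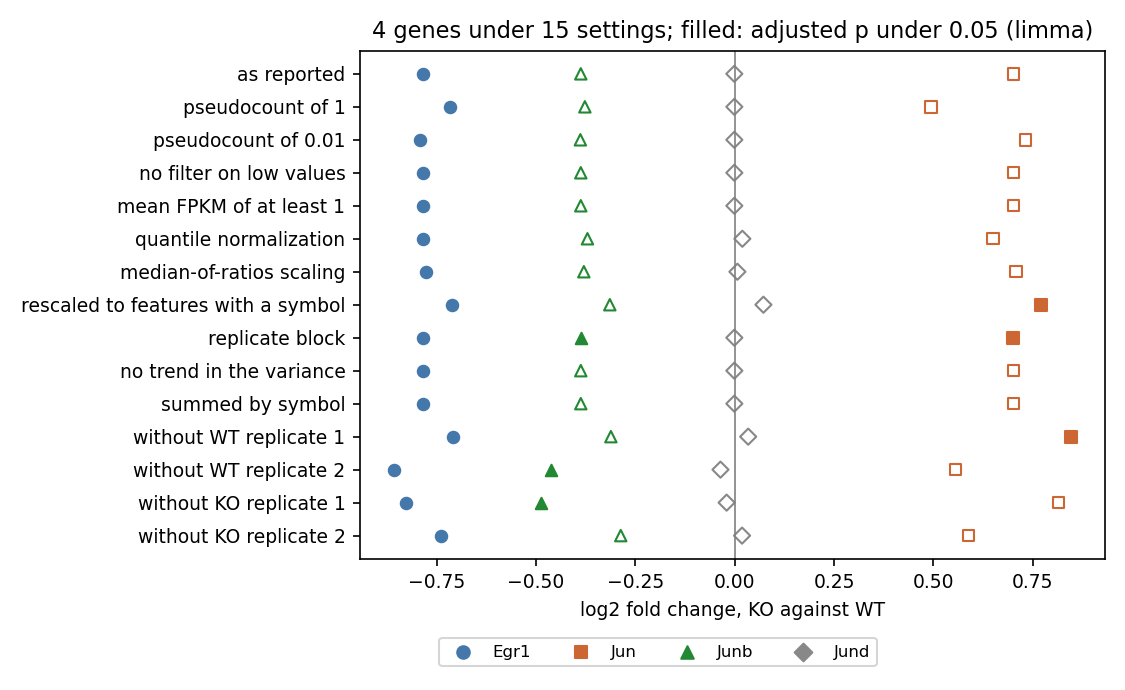
Log2 fold change (KO against WT) of Egr1, Jun, Junb and Jund as reported and under the 14 alternative settings, with a filled marker for an adjusted p under 0.05 (limma). Egr1 is filled throughout, between -0.86 and -0.71, Jun and Junb are filled under 3 settings each, and Jund stays near 0 and is never filled.

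Among 10985 features with a symbol and a mean of at least 1 FPKM, 5 had a pattern over the 4 libraries closest to that of Egr1, by Euclidean distance of centred log2(FPKM + 0.1). These were Fam131c (0.0278), Tnk1 (0.0358), Clmp (0.0370), Slc1a3 (0.0375) and Fjx1 (0.0444), whose log2 fold changes lay between -0.79 and -0.77. With 4 libraries, this likeness is given as a description.

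Atf3, Ier2 and Ier3 did not pass the test. Atf3 (ENSMUSG00000026628.13, listed at chr1:191170297-191183333, minus strand, within an annotated gene that starts at 191218039) encodes a stress-induced factor of the CREB family that dimerises with JUN proteins. It was at 2.19 and 1.84 FPKM in WT and 1.87 and 2.15 FPKM in KO. The groups covered almost the same range, and the interval of the log2 difference ran from -0.43 to 0.43.

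Ier2 (ENSMUSG00000053560.4, chr8:84661331-84662852, minus strand) is a serum-induced gene and had the highest level of the 10. It was at 178 and 165 FPKM in WT and 176 and 159 FPKM in KO. The groups overlapped, replicate 1 was higher than replicate 2 in both, and the log2 fold change was -0.03 with an interval from -0.25 to 0.18 (adjusted p = 0.831, limma). Of the 10 genes, 6, among them the untested Fosl1, were higher in replicate 1 than in replicate 2 in both genotypes. The share over all features was not computed, so this count is a description only.

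Ier3 (IEX-1; ENSMUSG00000003541.6, chr17:35821713-35822911, plus strand) encodes a stress-induced regulator of cell survival. It was at 3.47 and 2.61 FPKM in WT and 4.08 and 3.57 FPKM in KO. Both KO libraries were above both WT libraries, KO replicate 2 only narrowly. The log2 fold change was 0.33 (SE 0.18, adjusted p = 0.271, limma) with an interval from -0.10 to 0.77, which includes 0.

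The relatives and regulators of the 10 genes were taken from lists written from general knowledge of each family. Of 12 other AP-1 and EGR family genes, 6 were tested, and 1 passed in each direction, against 12.5% of all tested features in either direction, with a median log2 fold change of -0.07. Jdp2, which represses AP-1 by pairing with JUN, rose from 8.57 and 7.68 FPKM in WT to 12.4 and 12.1 FPKM in KO (log2 fold change 0.59, SE 0.10, adjusted p = 0.0203, limma). Nab1, a corepressor of EGR proteins, fell from 2.63 and 2.87 FPKM to 1.53 and 1.43 FPKM (log2 fold change -0.85, SE 0.16, adjusted p = 0.0240). Jdp2 passed under all 14 alternatives and Nab1 under 13 of them.

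Nab1 and Egr1 thus fell by similar amounts, and the ratio of Egr1 to Nab1 was 5.10 and 4.22 in WT and 4.97 and 5.01 in KO. Nab2, the other EGR corepressor and itself an EGR1 target, was at 10.6 and 8.82 FPKM in WT and 9.40 and 7.97 FPKM in KO, and its groups overlapped (adjusted p = 0.488). The ratio of Egr1 to Nab2 was 1.27 and 1.37 in WT and 0.808 and 0.896 in KO. Atf2, a JUN partner and the highest of this list, was at 18.0 to 22.4 FPKM over the 4 libraries (adjusted p = 0.517).

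Of 29 other immediate early genes, 26 were tested, 5 passed higher and 1 lower in the KO, against 6.85% higher and 5.6% lower of all tested features, and the median log2 fold change was 0.15. The highest of the list, Mcl1, Zfp36l1 and Pim1, had log2 fold changes of -0.03, -0.05 and 0.13 and did not pass. Ctgf, a matricellular protein induced by serum and YAP, rose from 6.76 and 6.15 FPKM to 12.7 and 13.3 FPKM (log2 fold change 1.00, adjusted p = 0.00558, limma). Cyr61, its relative, rose from 4.35 and 5.53 FPKM to 9.11 and 10.02 FPKM (0.95, adjusted p = 0.0151). Both passed under all 14 alternatives. Rhob, an immediate early small GTPase, was the gene that fell, from 25.4 and 21.2 FPKM to 14.9 and 13.5 FPKM (-0.70, adjusted p = 0.0187), although not without the variance trend (adjusted p = 0.0532).

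The other 3 that rose, Ier5 (log2 fold change 1.23, adjusted p = 0.0308) and the polo-like kinases Plk2 (0.56, adjusted p = 0.0383) and Plk3 (0.38, adjusted p = 0.0432), did not pass under every leave-out. Ier5, the only gene of the list to pass at over 2-fold, was at 0.407 and 0.453 FPKM in WT and 1.21 and 1.08 FPKM in KO. The WT mean of Ier5, 0.430 FPKM, was under the filter of 0.5, so it was tested only because of its KO values. Without the filter on low values Ier5 did not pass (adjusted p = 0.0556, limma). Its adjusted p was 0.122 without KO replicate 1 and 0.0780 without KO replicate 2. That of Plk2 was 0.0853 without WT replicate 1 and 0.102 without KO replicate 2. That of Plk3 was 0.0595 without WT replicate 1, 0.142 without WT replicate 2, 0.158 without KO replicate 1 and 0.0755 without KO replicate 2.

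**Figure D4:**
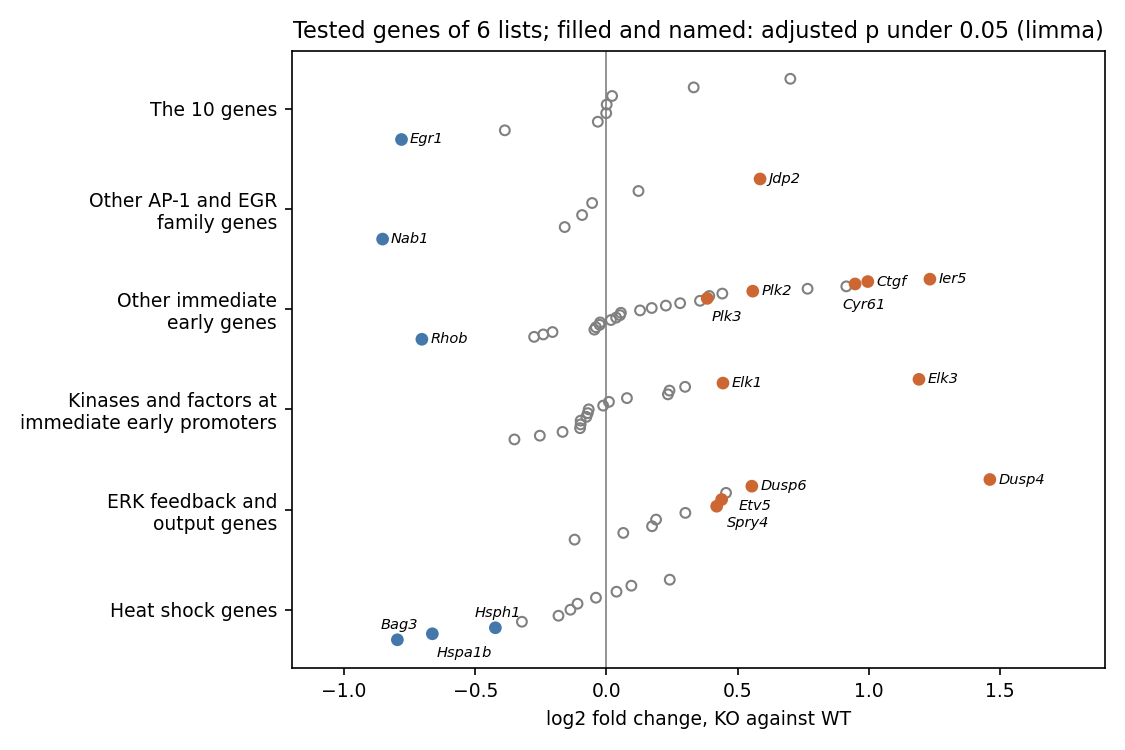
Log2 fold change (KO against WT) of each tested gene in 6 lists, with genes at an adjusted p under 0.05 (limma) filled and named (orange, higher in KO; blue, lower). Egr1 is the named point among the 10 genes, 5 of the 6 named points of the other immediate early genes and all 4 of the ERK feedback genes lie on the higher side, and the 3 named heat shock genes lie on the lower side.

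Among 17 kinases and factors that act on immediate early promoters, all tested, 2 passed, both higher in the KO. That is 11.8% of the list, near the 12.5% of all tested features, and the median log2 fold change was -0.07. Elk3, a ternary complex factor that represses SRF targets until it is phosphorylated, rose from 1.19 and 1.23 FPKM to 2.73 and 3.08 FPKM (log2 fold change 1.19, SE 0.16, adjusted p = 0.0109, limma), under all 14 alternatives as well. Elk1, an activating ternary complex factor, was listed in a feature merged with its neighbour Cfp, which rose by 0.44 (adjusted p = 0.0482). Its adjusted p was 0.173, 0.0843 and 0.103 without WT replicate 2, KO replicate 1 and KO replicate 2, which left 1 gene past in this list each time. Rps6ka1 and Map2k2, which were among the highest of the list, had log2 fold changes of 0.23 and 0.08 and did not pass.

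Of 10 ERK feedback and output genes, which are switched on by the same cascade as Egr1, all were tested, 4 passed higher and 0 lower in the KO (limma), against 6.85% higher and 5.6% lower of all tested features, and the median log2 fold change was 0.36. Dusp4, a nuclear phosphatase of ERK, rose from 3.22 and 2.86 FPKM to 8.15 and 8.92 FPKM (1.46, adjusted p = 0.00403). Dusp6, the cytoplasmic phosphatase of ERK, rose from 25.0 and 23.8 FPKM to 35.5 and 36.2 FPKM (0.55, adjusted p = 0.0116). Both passed under all 14 alternatives. Spry4, a Sprouty inhibitor (0.42, adjusted p = 0.0436), and Etv5, an ETS factor (0.44, adjusted p = 0.0409), also rose, whereas the other highest genes of the list, Etv4 and Spry2, had log2 fold changes of -0.12 and 0.30 and did not pass.

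Without KO replicate 1 the adjusted p was 0.110 for Spry4 and 0.0944 for Etv5, leaving 2 genes past in the list. Without WT replicate 2 it was 0.139 for Spry4 and 0.0965 for Etv5, and without KO replicate 2 it was 0.0532 for Spry4. Egr1 was lower in the KO libraries, in which Dusp4 and Dusp6 were higher, and any link between them was not tested.

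The 11 heat shock genes include some that stress induces along with immediate early genes. Of the 11, 3 passed lower and 0 higher in the KO (limma), against 5.6% lower and 6.85% higher of all tested features. The median log2 fold change of the 11 was -0.14. Bag3, a co-chaperone, fell from 15.4 and 13.6 FPKM to 8.73 and 7.90 FPKM (-0.80, adjusted p = 0.0112), under all 14 alternatives too. Hsph1 fell by 0.42 (adjusted p = 0.0352) and Hspa1b by 0.66 (adjusted p = 0.0284), the latter a near-identical copy of Hspa1a, so that its reads may be divided between them. Without KO replicate 1 the adjusted p was 0.110 for Hsph1 and 0.0712 for Hspa1b, leaving 1 gene past, and without WT replicate 2 it was 0.0680 for Hsph1. The abundant Hsp90ab1, Hspa8 and Hsp90aa1 had log2 fold changes of -0.14, -0.32 and 0.24 and did not pass. The part of stress in the lower Egr1 level was not tested.

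For the series as a whole, Arntl, the targeted gene, was at 6.05 and 6.29 FPKM in WT and 5.95 and 5.92 FPKM in KO (log2 fold change -0.06, adjusted p = 0.750, limma), so that its RNA level gave no check of the labels. The libraries carried the markers of ESCs, since all 8 ESC markers were between 147 and 3045 FPKM, led by Dppa5a, Pou5f1 and Zfp42. Of these 8, Tdgf1 and Utf1 passed as lower in the KO (-0.36 and -0.43, adjusted p = 0.0322 and 0.0491, limma) and 0 as higher. Over all tested features, 5.6% passed lower and 6.85% higher. Tdgf1 was not past without WT replicate 2, KO replicate 1 or KO replicate 2 (adjusted p = 0.123, 0.0945 and 0.0825), and Utf1 was not past without WT replicate 1 or KO replicate 2 (0.0806 and 0.140). Under quantile normalization neither passed (adjusted p = 0.0667 for Tdgf1 and 0.159 for Utf1), and Utf1 did not pass under median-of-ratios scaling (adjusted p = 0.0513). The 6 fibroblast markers listed summed to 1.91 to 2.23 FPKM in WT and 2.66 to 3.31 FPKM in KO, mostly Thy1, with Col3a1 and Dcn at 0 in at least 1 library. Only Thy1 was tested, and it did not pass (log2 fold change 0.55, adjusted p = 0.120, limma), although both KO libraries were above both WT libraries. The 8 markers of differentiated cells summed to 1.55 to 1.92 FPKM in WT and 3.46 to 3.49 FPKM in KO, with T and Cdx2 at 0 in at least 1 library. Most of the KO sum was Pax6, a neural gene, at 0.466 and 0.859 FPKM in WT and 2.28 and 2.36 FPKM in KO. Only Pax6 and Gata4 were tested. Pax6 rose by 1.72 (adjusted p = 0.0198, limma), but did not pass without the filter on low values (adjusted p = 0.0536). Gata4 did not pass (log2 fold change -0.22, adjusted p = 0.653). The part of other cell types in the levels of the 10 genes was not tested.

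The deposited values also differed between libraries in their total. FPKM summed to 991944 and 1183010 in WT and 872196 and 840017 in KO, and features without a symbol took 26.8% and 37.3% of those sums in WT and 19.0% and 18.1% in KO. Rescaled to the features with a symbol, Egr1 fell by 0.71 (adjusted p = 0.00344), Jun passed as higher in the KO with a log2 fold change of 0.77 (adjusted p = 0.0221), and Junb at -0.31 did not pass (adjusted p = 0.0748). Under that rescaling the calls over all features were 1407 higher and 667 lower in the KO, compared with 890 higher and 728 lower as deposited, and the median of all tested features moved from -0.02 to 0.05. Jund and Ier2 changed sign with it, to 0.07 and 0.04, and did not pass.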

How the data were processed

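The authors deposited 1 table per library with the FPKM of each gene. The submitters' processing notes name TopHat2 2.1.1, Bowtie2 2.3.0 and Cufflinks 2.2.1, and the builds GRCm38 and mm10. The files hold neither counts nor depth. Starts were read as 1 base before the annotated starts and written 1-based, and gene identifiers and overlaps were taken from GENCODE M21.

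The 4 tables were joined. Of 19645 features, 1935 had no symbol, and a symbol listed more than once was represented by the feature with the highest mean. Features with a mean of at least 0.5 FPKM (12990, leaving out 6655) were tested with limma 3.58.1 in R 4.3.3 on log2(FPKM + 0.1), with genotype as the only term and a trend in the variance. Fold changes are on that scale, which understates those of low genes, and a call needed an adjusted p under 0.05 and a change over 2-fold. The tests were checked on simulated data. Tables and plots were made with Python 3.11.15, numpy 2.4.6, pandas 2.3.3 and matplotlib 3.10.9.

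The text names all 10 genes, every gene of the other lists at an adjusted p under 0.05, the 3 highest of each list, and the 5 features most like the tested gene with the largest change. A further gene that this rule names is not reported here. Fosl2 and the features that share coordinates with a gene were named after their values were seen. The genes and lists were chosen with earlier results of these data known, so list counts are descriptive. The alternatives were another pseudocount (1 or 0.01), no filter or a mean of at least 1 FPKM, quantile and median-of-ratios scaling, rescaling to features with a symbol, summing by symbol, no variance trend, a block for the replicate number, and leaving out each library.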

Additional observations from a re-analysis of the deposited data

How the results depend on the processing

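Of the 8 tested genes, Egr1, Jun, Junb and Ier3 kept their direction under every alternative run. The number of the 10 genes past an adjusted p of 0.05 was 1 as reported, 2 after rescaling to features with a symbol, 3 with a replicate block, and 1 to 2 when a library was left out. The replicate block also gave 14 other immediate early genes, 6 kinases and factors, 7 ERK feedback genes and 6 heat shock genes, and 4052 features in all against 1618. Whether the replicate numbers pair the libraries is not known. The difference between replicates 1 and 2 had a Pearson r of 0.0712 between WT and KO over all tested features. That value weighs every feature alike and cannot exclude a replicate difference shared by some genes, and only 2 pairs exist. Without the filter on low values the counts were 1 for the other AP-1 and EGR family genes, 3 for the other immediate early genes, 1 for the kinases and factors, 2 for the ERK feedback genes and 1 for the heat shock genes (951 features in all). Without a variance trend they were 3 for the other immediate early genes, 1 for the kinases and factors and 2 for the ERK feedback genes (1165 features in all). Rescaling to features with a symbol gave 9 other immediate early genes, 6 ERK feedback genes and 5 heat shock genes (2074 features in all). When a library was left out the counts ran from 4 to 8 for the other immediate early genes, 1 to 2 for the kinases and factors, 2 to 4 for the ERK feedback genes and 1 to 3 for the heat shock genes.

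The genes near 0 changed sign without passing. Quantile normalization gave -0.043 for Fos, 0.019 for Jund, -0.051 for Atf3 and 0.028 for Ier2. Rescaling gave 0.072 for Jund and 0.040 for Ier2, and median-of-ratios scaling gave 0.0068 for Jund. Leaving out a library gave -0.22 to 0.34 for Fos, -0.036 to 0.034 for Jund, -0.12 to 0.12 for Atf3 and -0.11 to 0.042 for Ier2. Fos had no value with a mean of at least 1 FPKM or without KO replicate 1, where it was under the filter. The causes were not tested. No depth was given, so the precision of the low FPKM of Fos, Fosl1 and Fosb rests on 2 libraries per group.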
